A study of Mus musculus with 111 samples.

Results

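Immediate early genes are the first genes that a cell transcribes after a stimulus, and the 10 described here are Fos, Fosb, Jun, Junb, Egr1, Egr2, Arc, Nr4a1, Ier2 and Dusp1. They were chosen by symbol, from the probe sets annotated to that gene alone, and of several such probe sets the one with the highest mean was used. All 10 were found among 18194 genes measured this way. Their levels were followed over 24 groups of sorted mouse striatal cells, and each level is a log2 array signal of 1 probe set, which does not allow levels of different genes to be set against each other.

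The cells came from 2 mouse models of Huntington's disease. R6/2 mice express the first exon of human huntingtin from a randomly inserted transgene and were sampled, beside wild-type (WT) littermates, at 6 and 12 weeks. zQ175 mice carry an expanded repeat in the mouse Htt gene and were sampled beside WT littermates at 6 and 12 months. Cells were sorted by flow cytometry into astrocytes (GLT1+/CD11b-), microglia (GLT1-/CD11b+) and a negative fraction (GLT1-/CD11b-), where GLT1 is an astrocyte glutamate transporter and CD11b a surface protein of myeloid cells. Each fraction held 37 samples: 5 of R6/2 and 5 of WT mice aged 6 weeks, 6 of R6/2 and 5 of WT mice aged 12 weeks, and 4 of each genotype at 6 as at 12 months in the zQ175 cohort. A sample pooled the striata of same-genotype littermates, without the subventricular zone, and no separate animals were named, so every p-value measures the spread between pooled samples. The striata were digested with papain and DNase at 37 °C for 50 minutes and passed through density gradients before staining on ice and sorting. The values therefore describe RNA at the end of that procedure, and unsorted or undissociated tissue was not analysed here. Model, age and WT cohort change together between the weeks and the months samples and cannot be told apart.

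As background, immediate early genes need no new protein for their induction: calcium, cyclic AMP and MAP kinase signals reach factors such as CREB and SRF that already sit on their promoters. Fos, Fosb, Jun and Junb encode subunits of the AP-1 transcription factor, Egr1 and Egr2 zinc finger transcription factors, and Nr4a1 an orphan nuclear receptor. Arc encodes a synaptic protein best known from active neurons, Ier2 a small nuclear protein, and Dusp1 a phosphatase that switches MAP kinases off again. Enzymatic dissociation of brain tissue at body temperature is known to raise several of these genes, above all in microglia.

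Promoter sequences are shown for 5 of the members that carry motifs through which CREB and SRF are known to act on this class of genes. They are the 150 bases before the start listed in the RefSeq promoter table on GRCm38.p6, read 5′ to 3′ on the gene's strand, with the motif matches in capitals: chr12:85473740-85473889 (plus) for Fos, chr7:19310046-19310195 (minus) for Fosb, chr10:67537780-67537929 (plus, the most downstream of 5 annotated starts) for Egr2, chr15:101266696-101266845 (plus) for Nr4a1 and chr17:26508473-26508622 (minus) for Dusp1. The listed starts of Fosb, Egr2 and Nr4a1 lie inside the annotated gene, so these windows overlap it, and other starts of these genes were not looked at.
Fos: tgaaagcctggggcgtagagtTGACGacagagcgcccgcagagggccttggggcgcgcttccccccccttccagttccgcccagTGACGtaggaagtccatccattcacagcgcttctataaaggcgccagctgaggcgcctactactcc
Fosb: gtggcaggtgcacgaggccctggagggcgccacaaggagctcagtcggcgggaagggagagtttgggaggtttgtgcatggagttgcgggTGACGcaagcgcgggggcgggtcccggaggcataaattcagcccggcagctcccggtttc
Egr2: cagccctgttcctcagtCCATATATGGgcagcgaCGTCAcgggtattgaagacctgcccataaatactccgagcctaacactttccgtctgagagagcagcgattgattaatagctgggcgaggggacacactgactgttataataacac
Nr4a1: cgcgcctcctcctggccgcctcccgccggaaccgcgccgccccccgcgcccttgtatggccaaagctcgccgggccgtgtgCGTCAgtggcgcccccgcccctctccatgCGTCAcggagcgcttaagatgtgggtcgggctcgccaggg
Dusp1: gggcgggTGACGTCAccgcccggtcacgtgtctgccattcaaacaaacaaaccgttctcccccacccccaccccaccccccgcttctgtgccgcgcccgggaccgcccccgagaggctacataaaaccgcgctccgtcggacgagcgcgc
The search covered the cyclic AMP response element TGACGTCA, its core site TGACG, the AP-1 site TGANTCA and the CArG box of SRF, on both strands, and a full element counts as 2 core sites. Of the 7 members looked at, 6 held a core site, as did 13.3% of 32851 promoters of the same length. The full element stood in Dusp1 alone among the 7, against 1.36% of all promoters, and the CArG box in Egr2 alone, against 0.916%. Fos, Nr4a1 and Dusp1 held 2 core sites. Fosb, Egr2 and Junb held 1, and the sequence of Junb is not shown. Jun held none of the motifs, and none of the 7 held an AP-1 site, which 4.24% of all promoters had. A match describes letters in this window and is no evidence of binding. Egr1, Arc and Ier2 were not looked at.

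The fractions carried the markers of their labels. The mean of 10 astrocyte markers was 12.35 in astrocytes against 7.93 in microglia and 8.98 in the negative fraction, and the mean of 9 microglia markers was 12.44 in microglia against 5.70 and 6.02. The negative fraction led in endothelial and mural cell markers (12.22, 11 genes), oligodendrocyte precursor markers (9.80, 6 genes) and neuronal markers (8.19, 11 genes). Oligodendrocyte markers were as high in astrocytes (12.45) as in the negative fraction (12.23, 9 genes), so the astrocyte fraction also carried oligodendrocyte transcripts, and in bulk RNA fewer cells of a type and less RNA per cell cannot be told apart. Endothelial and mural markers varied widely between the astrocyte samples, from 5.83 to 10.96. Number 31 (zQ175 at 12 months) stood apart: it had microglia markers at 10.08 in its negative library (others 5.17 to 8.05) and endothelial and mural markers at 10.45 in its microglia library (others up to 8.38). Results that these samples enter are given without number 31 where its omission ends or makes a call. In microglia the oligodendrocyte markers lay at 7.0 to 9.49 in the weeks samples and 9.24 to 11.52 in the months samples. The sources used here give no scan date and no batch.

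In WT mice 9 of the 10 genes were lowest in astrocytes and highest in microglia, and Arc ran the other way. All 10 passed the test between astrocytes and microglia, 9 lower in astrocytes and Arc higher, where 85.6% of all genes tested were called. All 10 also passed between astrocytes and the negative fraction (75.9% of all genes called) and between microglia and the negative fraction (83.7%). With so large a share called everywhere, the number of calls says little about these genes, and the directions and sizes of their differences are given as well. The median difference of the 10 genes was -3.17 on the log2 scale between astrocytes and microglia (0.05 over all genes), -1.75 between astrocytes and the negative fraction (0.03) and 1.12 between microglia and the negative fraction (-0.03). The medians over all genes keep the sign, and between astrocytes and microglia 44.9% of all genes were called higher and 40.7% lower. They therefore do not show how large a typical difference was, and absolute sizes over all genes were not computed. These fits used 18 WT samples per fraction, with the age group as a term.

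**Figure D1:**
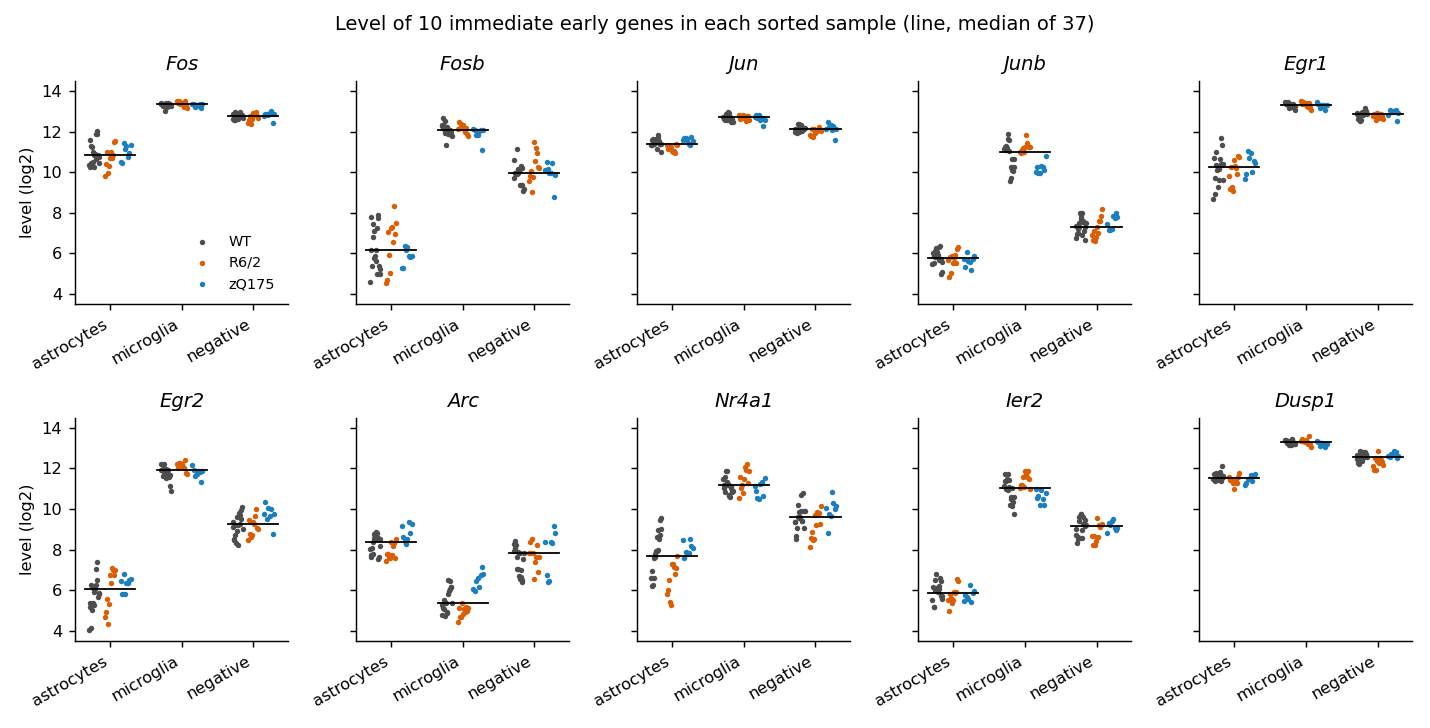
Log2 array signal of each gene (vertical axis) in every sorted sample, by fraction (horizontal axis), coloured by genotype, with a line at the median of the 37 samples of a fraction. In 9 panels every microglia sample lies above every astrocyte sample, and for Arc every microglia sample lies lower. The share of all genes separated in this way was not computed.

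Among the AP-1 subunits, Fosb and Junb differed most between the fractions. Over the 37 samples of a fraction, all genotypes and ages together, Fosb ran from 4.52 to 8.33 in astrocytes (median 6.16), from 8.80 to 11.47 in the negative fraction (median 9.99) and from 11.11 to 12.68 in microglia (median 12.11). The astrocyte and microglia samples left a gap of 2.78 between them, and the negative samples stayed clear of the astrocyte samples but reached into the microglia samples. In the WT fit Fosb was 57.6-fold lower in astrocytes than in microglia (log2 -5.85, SE 0.23) and 12.9-fold lower than in the negative fraction (-3.69, SE 0.23). Junb ran from 4.83 to 6.35 in astrocytes (median 5.77), from 6.62 to 8.21 in the negative fraction (median 7.30) and from 9.59 to 11.90 in microglia (median 11.02). Its 3 fractions did not overlap at all. Junb was 32-fold lower in WT astrocytes than in microglia (-5.00, SE 0.14), and 11.1-fold higher in microglia than in the negative fraction (3.47, SE 0.14).

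Fos and Jun followed the same order over a shorter distance. Their microglia levels, like those of Egr1 and Dusp1, were near the highest value of any probe set on any array (14.26). The part of this in the size of their differences was not tested. Fos lay between 9.82 and 12.05 in astrocytes (median 10.83), between 12.40 and 13 in the negative fraction (median 12.78) and between 13.04 and 13.54 in microglia (median 13.35). The fractions did not overlap, although only 0.04 parted the highest negative from the lowest microglia sample. The WT difference was 5.15-fold between astrocytes and microglia (-2.36, SE 0.11) and smaller between microglia and the negative fraction (0.57, SE 0.11, adjusted p = 1.18e-05). Jun ran from 10.97 to 11.83 in astrocytes, 11.57 to 12.47 in the negative fraction and 12.28 to 12.98 in microglia, so that neighbouring fractions overlapped. It was 2.34-fold lower in WT astrocytes than in microglia (-1.23, SE 0.05), the smallest of these differences among the 10 genes. Jun has 2 probe sets, which followed each other with r = 0.929 over all arrays. That value includes the differences between fractions, and within a fraction some calls of Jun depended on the probe sets used, as given below.

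Of the EGR factors, Egr2 gave the largest contrast of the 10 genes. It ran from 4.02 to 7.39 in astrocytes (median 6.06), from 8.23 to 10.34 in the negative fraction (median 9.26) and from 10.88 to 12.41 in microglia (median 11.90), with no overlap between any fractions. It was 65.6-fold lower in WT astrocytes than in microglia (-6.03, SE 0.19), 10.8-fold lower than in the negative fraction (-3.43, SE 0.19), and 6.07-fold higher in microglia than in the negative fraction (2.60, SE 0.19). Egr2 also has 2 probe sets, with r = 0.994 between them over all arrays. Egr1 lay between 8.67 and 11.70 in astrocytes (median 10.28), between 12.53 and 13.15 in the negative fraction (median 12.86) and between 13.07 and 13.51 in microglia (median 13.34). Its microglia and negative samples overlapped, and the difference of 0.47 between them (SE 0.15, adjusted p = 0.00416) was the smallest of the 10. In the WT months samples alone it was 0.30, with an adjusted p of 0.148.

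Nr4a1, Ier2 and Dusp1 kept the order of astrocytes, negative fraction and microglia in WT. Nr4a1 ran from 5.26 to 9.54 in astrocytes (median 7.70), from 8.15 to 10.83 in the negative fraction (median 9.63) and from 10.49 to 12.22 in microglia (median 11.16). It had the widest range of the 10 genes in astrocytes, and its astrocyte samples overlapped the negative ones. Nr4a1 was 9.30-fold lower in WT astrocytes than in microglia (-3.22, SE 0.20). Ier2 ran from 4.99 to 6.80 in astrocytes, 8.22 to 9.77 in the negative fraction and 9.74 to 11.88 in microglia, where only the last 2 ranges touch. It was 30.2-fold lower in WT astrocytes than in microglia (-4.92, SE 0.14). Dusp1 ran from 11 to 12.11, 11.90 to 12.86 and 13.05 to 13.58 in the same order, with the first 2 ranges overlapping. It was 3.20-fold lower in WT astrocytes than in microglia (-1.68, SE 0.05) and 1.64-fold higher in microglia than in the negative fraction (0.71, SE 0.05).

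Arc was the exception. It ran from 7.44 to 9.34 in astrocytes (median 8.38), from 6.38 to 9.15 in the negative fraction (median 7.82) and from 4.44 to 7.12 in microglia (median 5.37). Its astrocyte samples all lay above its microglia samples, by at least 0.32, while the negative samples overlapped both. In the WT fit Arc was 6.65-fold higher in astrocytes than in microglia (2.73, SE 0.19) and 1.81-fold higher than in the negative fraction (0.85, SE 0.19, adjusted p = 8.43e-05). That fit joins all ages, and at 6 weeks the negative fraction had the higher mean. Arc averaged 7.84 in astrocytes and 8.18 in the negative fraction of WT, and 7.64 and 8.08 in R6/2. At 12 weeks and at 6 and 12 months WT astrocytes were higher (8.62, 8.65 and 7.97, against 7.25, 6.99 and 7.06).

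The order also held number by number, although the labels do not say that samples of the same number come from the same mice. In each of the 37 numbers the microglia sample exceeded the astrocyte sample of the same number for the 9 genes, and fell below it for Arc. The negative sample exceeded the astrocyte sample in 37 of 37 numbers for 8 genes and in 36 for Jun, while Arc was higher in astrocytes in 27 of 37. Microglia exceeded the negative fraction in 37 of 37 numbers for 8 genes and in 36 for Nr4a1, and Arc did so in 2. Of the means of the 24 groups, the 8 astrocyte groups were the lowest and the 8 microglia groups the highest for 8 genes without exception. For Nr4a1, 1 astrocyte group, WT at 12 months, lay above 2 negative groups, and for Arc the microglia groups were the lowest. Within a fraction, groups next to each other in the order of means overlapped in 7 of 7 pairs for every gene, except Junb and Ier2 in microglia with 6 of 7. The share of all genes with the same separation between fractions, or the same overlap within them, was not computed. Most genes tested were called between the WT fractions, so such separation may be common. These counts therefore describe the members and do not set them apart from other genes. The astrocyte medians of Fosb, Junb, Egr2 and Ier2 fell below the array medians (6.261 to 6.651). The deposited values carry no detection call, so whether such signals were above background cannot be read from them, and the folds against astrocytes may then be too small.

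The spread between samples of a group was wider in astrocytes than in the other fractions for Fos, Fosb, Egr1, Egr2, Junb and Ier2. Arc, Nr4a1 and, by a small margin, Jun spread most among negative samples, and Dusp1 had an SD of 0.19 in astrocytes and negative samples alike. The pooled within-group SD over the 8 groups of a fraction is used here, beside that of all genes tested in the same fraction (median 0.199 in astrocytes, 0.228 in microglia and 0.287 among negative samples). In astrocytes 8 of the 10 genes lay above the median of all genes and 4 above the 90th percentile: Fosb (0.96, at percentile 99.1), Egr1 (0.63, 97.4), Egr2 (0.52, 95.7) and Fos (0.50, 95.2). Jun (0.15, 27) and Dusp1 (0.19, 44.7) lay below that median. Of the 4 widest genes, Fosb and Egr2 had astrocyte medians below the array medians, and the part of low signal in their wide spread was not tested. In microglia 6 genes lay above the median and none above the 90th percentile, and Egr1 (0.09), Fos (0.10), Dusp1 (0.10) and Jun (0.11) were among the least variable genes, at percentiles 3.9, 5.4, 5.6 and 7.3. Their median levels in microglia, 13.34, 13.35, 13.28 and 12.72, were near the highest value of any probe set on any array (14.26), and the part of this in their narrow spread was not tested. Among negative samples Arc spread most (0.55, percentile 91.3), followed by Fosb (0.48, 84.4), with Fos and Egr1 at 0.14 each.

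**Figure D2:**
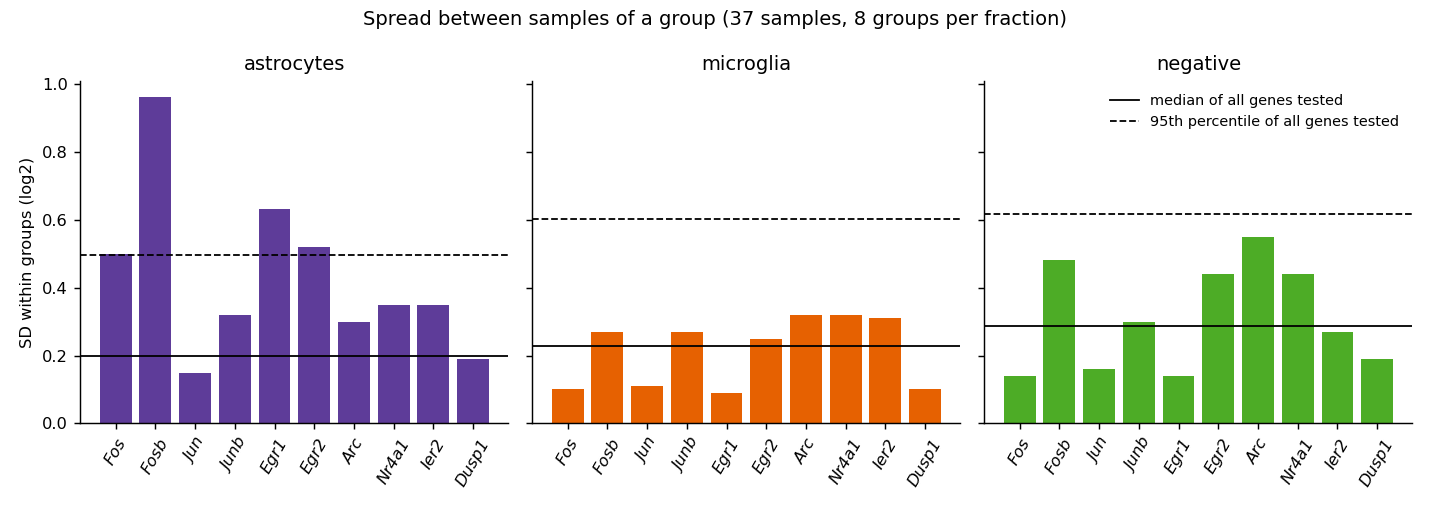
Pooled SD within groups (vertical axis, log2) of each gene in the 3 fractions, with lines at the median (solid) and the 95th percentile (dashed) of all genes tested. Fosb in astrocytes, at 0.96, stands above every other bar.

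Fosb in astrocytes shows what such a spread looks like. Its WT samples read 4.58, 7.81, 6.18, 5.36 and 6.83 at 6 weeks and 7.44, 7.12, 5.76, 5.87 and 6.18 at 12 weeks. At 6 months they read 5.62, 7.23, 5.01 and 7.77, and at 12 months 7.88, 5.37, 4.97 and 5.24. The means of the 8 astrocyte groups spanned 1.87, less than the distance between the highest and lowest WT sample at 6 weeks. The SD within a group ran from 0.24 (zQ175 at 12 months) to 1.35 (WT at 12 months), so a change of Fosb with genotype would have to be large to show here. For Egr1 in astrocytes the group SD ran from 0.34 to 1.04, and for Egr2 from 0.09 to 0.92, while Fos in microglia stayed between 0.04 and 0.15.

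Within groups many of the genes rose and fell together, while Arc, and Junb outside astrocytes, stood apart. The values that follow correlate deviations from the group mean over the 37 samples of a fraction, and the samples share their sort and their array. Over the 45 pairs of the 10 genes the median r was 0.39 in astrocytes, 0.37 in microglia and 0.28 among negative samples, where all pairs of genes had 0.02, 0.02 and 0.03. In astrocytes 18 of 45 pairs exceeded 0.5 (5.23% of all gene pairs), and in microglia and the negative fraction 10 each (4.67% and 8.09%). Below 0 lay 7, 10 and 13 pairs. Fos followed Fosb with r = 0.79 in astrocytes, 0.61 in microglia and 0.84 among negative samples, Egr1 with 0.80, 0.68 and 0.75, and Dusp1 with 0.77, 0.76 and 0.58. Arc went against Fos in each fraction (-0.37, -0.31 and -0.38) and against Ier2 in astrocytes (-0.45) and the negative fraction (-0.50). Junb followed Fos with r = 0.64 in astrocytes but 0.05 in microglia and -0.04 in the negative fraction, where it also stood at -0.10 with Fosb and -0.15 with Egr1.

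The genes outside the 10 whose deviations were most like the members' mean differed between fractions. In astrocytes they were Tpm1 (r = 0.87, a tropomyosin), Pde5a (0.86, a cyclic GMP phosphodiesterase), Sema3c (0.85, a secreted semaphorin), Atf3 (0.85, a stress-induced factor of the ATF family), Klf2 (0.84, a Krüppel-like factor prominent in endothelium) and Akap12 (0.84, a kinase anchoring protein), each over 37 samples. In microglia they were Irf1 (0.80), Tnfaip3 (0.79), Klf4 (0.79), Nfkbid (0.76), Id2 (0.73) and Ppp1r15a (0.73). Irf1 is an interferon regulatory factor, and Tnfaip3 and Nfkbid are feedback regulators of NF-kB. Among negative samples Egr3 (0.75) and Atf3 (0.65) led, followed by Spopl (0.63), Tmem183a (0.62), Nup153 (0.62) and Hook1 (0.62). Of the 50 genes most like the members in each fraction, astrocytes and microglia shared 3 (Atf3, Klf4 and Plk2), astrocytes and the negative fraction 2 (Atf3 and Btg2), and microglia and the negative fraction 3 (Atf3, Egr3 and Gem), which left Atf3 as the 1 gene on all 3 lists.

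In astrocytes 6 of the 10 genes moved with the markers of endothelial and mural cells. These relations were looked for after the data had been seen, over 210 combinations (10 genes, 7 marker lists and 3 fractions), with p-values adjusted over all genes tested for a list. The 6 genes were Fos, Fosb, Junb, Egr1, Ier2 and Dusp1, all with a positive r, where 3.84% of all genes were called, and the median r of the 10 genes was 0.68 against -0.03 over all genes. Ier2 had r = 0.80 and rho = 0.77 (permutation p = 1e-05, the smallest that 100000 permutations can give, adjusted p = 6.1e-06), 0.78 without the 2 samples farthest from the median, 0.90 in the 21 weeks samples and 0.61 in the 16 months samples. Egr1 had r = 0.74 and rho = 0.77 (permutation p = 1e-05, adjusted p = 0.000172), Fos r = 0.72 and rho = 0.72 (3e-05, 0.00029), and Dusp1 r = 0.74 and rho = 0.79 (2e-05, 0.000139). Junb had r = 0.74 and rho = 0.70 (permutation p = 2e-05, adjusted p = 0.00013), and Fosb r = 0.63 and rho = 0.59 (5e-05, 0.00672). For these 5 genes r stayed between 0.66 and 0.80 without the 2 farthest samples, and was 0.60 to 0.75 in the weeks and 0.69 to 0.84 in the months samples. Jun (0.40), Egr2 (0.42), Nr4a1 (0.22) and Arc (-0.36) did not pass.

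The astrocyte samples with more endothelial and mural signal thus also had more of these 6 immediate early transcripts. The same 6 genes passed with the 11 neuronal markers in astrocytes, which ran from 6.03 to 7.0 there (2.74% of all genes called). Their r was 0.70 for Dusp1 (rho = 0.66, adjusted p = 0.0032), 0.69 for Ier2 (0.61, 0.00353), 0.66 for Junb (0.60, 0.00594), 0.63 for Fosb (0.63, 0.0111), 0.61 for Fos (0.61, 0.017) and 0.56 for Egr1 (0.59, 0.0456). Their permutation p lay between 7e-05 and 0.00095, r was 0.58 to 0.72 without the 2 farthest samples, 0.47 to 0.71 in the weeks and 0.64 to 0.89 in the months samples. In the negative fraction Junb and Ier2 passed with the neuronal markers (11.8% of all genes called), each with r = 0.51: Junb with rho = 0.45, permutation p = 0.00573 and adjusted p = 0.041, and Ier2 with rho = 0.47, permutation p = 0.00246 and adjusted p = 0.0399. Without the 2 farthest samples r was 0.43 and 0.41, in the weeks samples 0.53 and 0.44 and in the months samples 0.48 and 0.71. In microglia the median r of the 10 genes was -0.14 with the endothelial and mural markers and -0.03 with the neuronal ones.

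**Figure D3:**
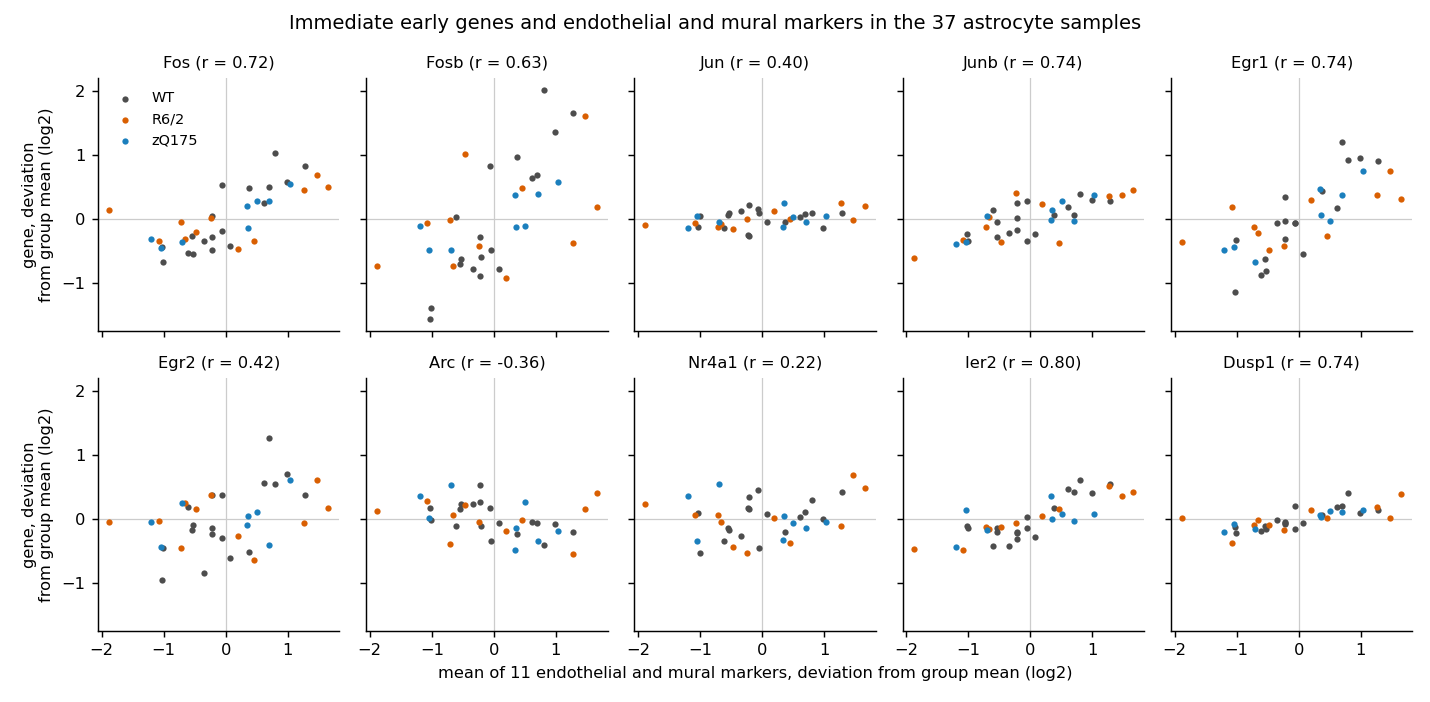
Deviation of each gene from its group mean (vertical axis, log2) against the deviation of the mean of 11 endothelial and mural markers (horizontal axis, log2) in the 37 astrocyte samples, coloured by genotype. The points of Ier2, with r = 0.80, lie along a rising line, and those of Nr4a1, with r = 0.22, do not.

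Arc followed oligodendrocyte markers instead. In the negative fraction its r with the 9 oligodendrocyte markers was 0.80 (rho = 0.73, permutation p = 2e-05, adjusted p = 3.15e-06), 0.74 without the 2 farthest samples, 0.71 in the weeks and 0.85 in the months samples, and it was the 1 member of 10 that passed (22% of all genes called). In astrocytes it was again Arc alone that passed (16.7% of all genes called), with r = 0.55 (rho = 0.48, permutation p = 0.00156, adjusted p = 0.015), 0.48 without the 2 farthest samples, 0.63 in the weeks and 0.51 in the months samples. Arc was thus higher in samples with more oligodendrocyte signal, in both fractions in which these markers were high.

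The next comparisons ask whether the mutation changed these genes. In R6/2 astrocytes at 12 weeks 4 of the 10 genes changed, 1 up and 3 down, where 28.7% of all genes were called. Egr2 rose. Its WT samples read 5.00, 6.09, 5.35, 5.28 and 5.89, and the R6/2 samples ran from 6.36 to 7.07 (median 6.87). They lay at percentiles 34.1 to 45.8 of their arrays in WT and 47.9 to 55.1 in R6/2. Whether such signals were above background is not known. All 6 R6/2 samples lay above all WT samples, and Egr2 was 2.45-fold higher (log2 1.29, SE 0.32, adjusted p = 0.00548). Leaving out any 1 sample of the fit left it between 1.16 and 1.43, with an adjusted p of at most 0.0173. At 6 weeks the groups had the same mean within their spread (WT 4.99 ± 0.92, R6/2 4.96 ± 0.50, SD, n = 5 each).

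Arc, Jun and Nr4a1 fell in the same astrocytes, by less. Arc read 8.38, 8.57, 8.77, 8.50 and 8.88 in WT and 7.56 to 8.52 (median 8.25) in R6/2, which overlapped, and its change was -0.50 (SE 0.15, adjusted p = 0.0163). The call held in every omission of a sample (adjusted p up to 0.0487). Jun read 11.38, 11.45, 11.49, 11.65 and 11.17 in WT and 10.97 to 11.39 (median 11.06) in R6/2, and changed by -0.29 (SE 0.09, adjusted p = 0.0225). Without number 16 or 18 its adjusted p was 0.0531 or 0.0733. Nr4a1 read 7.57, 7.80, 7.64, 7.92 and 7.94 in WT and 6.78 to 7.70 (median 7.22) in R6/2, and changed by -0.55 (SE 0.19, adjusted p = 0.0373). Leaving out any 1 of numbers 11, 14, 15, 17, 18, 19 and 20 ended that call, with adjusted p-values of 0.0519 to 0.0807. The groups held n = 5 WT and n = 6 R6/2 samples. Each SE uses 1 spread estimated over the 4 groups of the fit, the 6-week samples included.

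The composition of these samples moved as well. Oligodendrocyte markers averaged 12.62 (12.48 to 12.68) in WT and 12.32 (11.93 to 12.54) in R6/2 astrocytes at 12 weeks, and endothelial and mural markers 9.97 (9.42 to 10.58) and 9.30 (8.22 to 10.96). Oligodendrocyte precursor markers averaged 7.97 (7.73 to 8.24) in WT and 8.35 (8.09 to 8.68) in R6/2. Astrocyte markers averaged 12.48 (12.39 to 12.61) and 12.29 (12.08 to 12.42). The part of the precursor and astrocyte markers in the changes of the members was not tested. With the mean of the oligodendrocyte markers of each sample as a covariate, added after seeing the data, Arc changed by -0.20 (adjusted p = 0.321) and Nr4a1 by -0.32 (adjusted p = 0.302). With the endothelial and mural markers as the covariate, Nr4a1 changed by -0.47 (adjusted p = 0.0708), while Egr1 (0.80, adjusted p = 0.0372) and Fosb (1.21, adjusted p = 0.047) were called higher. At 6 weeks 0 of the 10 genes passed in R6/2 astrocytes by limma (1.2% of all genes called), and 2 had an unadjusted p below 0.05. Nr4a1 was one of them (-0.72, SE 0.20, adjusted p = 0.0926) and Jun the other (-0.27, SE 0.10, adjusted p = 0.213). The difference between the R6/2 effects at 12 and 6 weeks passed for 0 genes (1.15% of all genes called, 1 with an unadjusted p below 0.05).

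Ier2 in the negative fraction at 12 weeks was the 1 gene of 10 called in R6/2 mice (26.2% of all genes called). It read 9.61, 9.40, 9.64, 9.76 and 9.77 in WT and 8.61 to 9.56 (median 9.22) in R6/2. The groups overlapped, and the change was -0.47 (SE 0.15, adjusted p = 0.0226). Without number 13, 18 or 20 the adjusted p was 0.0554, 0.0506 or 0.054, and with endothelial and mural markers as a covariate the change was -0.31 (adjusted p = 0.184). Those markers were lower in R6/2 (12.18, 11.86 to 12.46) than in WT (12.67, 12.53 to 12.75), without overlap. Egr2 read 8.70, 8.30, 8.91, 9.59 and 8.23 in WT and 9.01 to 10.02 (median 9.31) in R6/2. Its change of 0.64 (SE 0.25) missed the threshold (adjusted p = 0.0627) but passed without number 18, 19 or 21, and with the oligodendrocyte markers as a covariate (0.76, adjusted p = 0.0211). The astrocyte markers in these R6/2 samples averaged 10.02 (9.05 to 10.32) against 7.89 (7.51 to 8.15) in WT, and their part in either change was not tested.

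Elsewhere no member tested was called in R6/2 mice. At 6 weeks the negative fraction had 0 of 10 called by limma (0.377% of all genes called, 1 gene with an unadjusted p below 0.05), and the difference between the ages 0 (4.25%, 2 genes). In microglia 9 genes were tested, since Arc was below the filter on dim genes. None of the 9 was called or had an unadjusted p below 0.05 at 6 weeks (0.41% of all genes called), at 12 weeks (6.08%) or between the ages (0.251%).

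**Figure D4:**
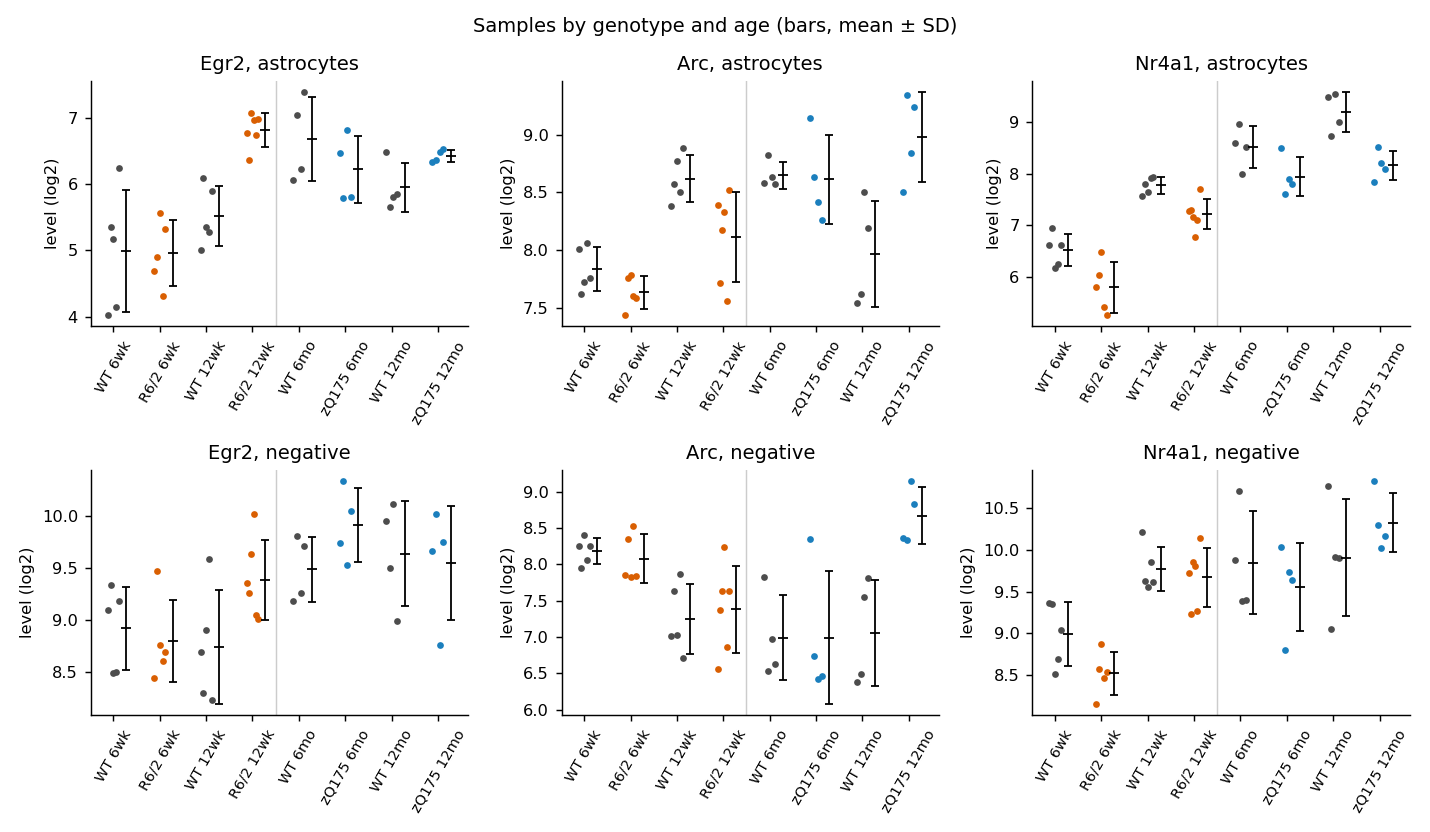
Log2 array signal (vertical axes, which do not start at 0) of Egr2, Arc and Nr4a1 in each astrocyte and negative sample by genotype and age, with the mean ± SD of a group beside its points and a grey line between the weeks and the months samples. Egr2 in R6/2 astrocytes at 12 weeks lies wholly above WT, and Nr4a1 in zQ175 astrocytes at 12 months wholly below.

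In zQ175 mice Arc and Nr4a1 changed in astrocytes at 12 months, and Arc in the negative fraction. In astrocytes these were 2 of 10 genes, where 5.9% of all genes were called. Arc read 7.55, 7.62, 8.50 and 8.19 in WT and 8.50, 9.34, 8.84 and 9.24 in zQ175. The groups met at 8.50, and Arc was 2.02-fold higher in zQ175 (1.01, SE 0.24, adjusted p = 0.0207). Without number 31, 33, 34 or 35 the change was 0.89, 0.93, 0.88 or 0.90, with adjusted p-values of 0.0741, 0.057, 0.0751 and 0.0654. Nr4a1 read 9.48, 8.73, 9.54 and 9.01 in WT and 7.84, 8.52, 8.20 and 8.10 in zQ175. The groups did not overlap, and Nr4a1 was 2.04-fold lower in zQ175 (-1.03, SE 0.24, adjusted p = 0.0216). Without number 30, 32, 33 or 34 its adjusted p was 0.0544, 0.0567, 0.0505 or 0.0755, and without number 31 the change was -1.14 (adjusted p = 0.0297). Oligodendrocyte markers averaged 12.42 (12.17 to 12.59) in WT and 12.50 (12.44 to 12.62) in zQ175 astrocytes at 12 months. Astrocyte markers were lower in these zQ175 samples (12.29, 12.22 to 12.36) than in WT (12.45, 12.41 to 12.50), without overlap, and oligodendrocyte precursor markers were 8.08 (7.99 to 8.25) against 7.79 (7.64 to 7.99). With the oligodendrocyte markers as a covariate Arc changed by 0.88 (adjusted p = 0.0388), and with the endothelial and mural markers by 0.94 (adjusted p = 0.018). The part of the astrocyte and precursor markers in the changes of Arc and Nr4a1 was not tested.

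Arc in the negative fraction at 12 months was the 1 gene of 10 called (6.93% of all genes called). It read 6.38, 6.49, 7.55 and 7.82 in WT and 8.37, 8.34, 9.15 and 8.83 in zQ175. The groups did not overlap, and Arc was 3.06-fold higher in zQ175 (1.61, SE 0.44, adjusted p = 0.0416). Leaving out any 1 of numbers 30 to 36 ended the call (adjusted p = 0.0514 to 0.13, without number 31 1.72 with 0.0517), and without number 37 it was 1.87 (0.0308). With the oligodendrocyte markers as a covariate Arc changed by 1.30 (adjusted p = 0.0103), and with the endothelial and mural markers by 1.49 (adjusted p = 0.0572). Oligodendrocyte markers averaged 12.05 (11.24 to 12.59) in WT and 12.31 (12.11 to 12.49) in zQ175. Oligodendrocyte precursor markers were higher in zQ175 (10.43, 10.25 to 10.52) than in WT (9.37, 8.61 to 10.09) and neuronal markers lower (8.30, 8.18 to 8.38, against 8.61, 8.41 to 8.78), both without overlap, and their part in the change of Arc was not tested. Over the 37 negative samples Arc had r = 0.48 with the precursor markers (rho = 0.38, permutation p = 0.0196, adjusted p = 0.0693), 0.36 without the 2 farthest samples, 0.22 in the weeks and 0.69 in the months samples. Junb differed by 0.70 (SE 0.21) and did not pass (adjusted p = 0.0526).

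In zQ175 microglia at 12 months 0 of 10 genes passed by limma (3.15% of all genes called), and 2 had an unadjusted p below 0.05. One was Arc, which read 6.08, 6.15, 6.15 and 5.37 in WT and 6.15, 6.74, 7.12 and 6.82 in zQ175 (0.77, SE 0.24, adjusted p = 0.104). At 6 months limma called 0 of 10 genes in astrocytes (0.38% of all genes called, 2 with an unadjusted p below 0.05), 0 in microglia (0.0082%, 0) and 0 in the negative fraction (0.0%, 0). The difference between the zQ175 effects at 12 and 6 months was called for 0 of 10 genes in astrocytes (0.00808% of all genes called, 2 with an unadjusted p below 0.05), 0 in microglia (0.0%, 0) and 0 in the negative fraction (0.0317%, 2).

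Arc moved in opposite directions in the astrocytes of the 2 models. The R6/2 effect at 12 weeks minus the zQ175 effect at 12 months, a test added after seeing the data, passed for 2 of 10 genes in astrocytes (10.1% of all genes called), 0 in microglia (1.92%, 1 gene with an unadjusted p below 0.05) and 1 in the negative fraction (10.7%). For Arc in astrocytes it was -1.52 (SE 0.28, adjusted p = 0.000586) and held in every omission of a sample. For Jun in astrocytes it was -0.51 (SE 0.14, adjusted p = 0.0174), and without number 32 it was -0.42 (adjusted p = 0.0524). For Arc in the negative fraction it was -1.48 (SE 0.50, adjusted p = 0.0498). That call was lost in 12 of 19 omissions, of numbers 11, 13, 14, 15, 16, 18, 19, 30, 32, 33, 34 and 35, with adjusted p-values up to 0.141.

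Whether a mutant effect differed between fractions was tested at the later age of each model. The R6/2 effect in astrocytes minus that in microglia passed for 2 of 10 genes (5.01% of all genes called): Egr2 (1.10, SE 0.31, adjusted p = 0.0325) and Nr4a1 (-0.88, SE 0.26, adjusted p = 0.0439). Egr2 lost the call without any 1 of numbers 11, 12, 15, 16, 19 and 21 (adjusted p up to 0.147), and Nr4a1 without any 1 of 11, 13, 15, 16, 17, 18 and 20 (up to 0.156). Astrocytes minus the negative fraction gave 0 calls by limma (12.9% of all genes called, 2 genes with an unadjusted p below 0.05), and microglia minus the negative fraction 0 (15.8%, 1 gene). For zQ175 limma called 0 of 10 genes in each of these comparisons (0.954%, 1.31% and 4.2% of all genes called, in the same order), and 1 gene in each had an unadjusted p below 0.05.

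With age in WT mice, Nr4a1 rose in astrocytes and in the negative fraction between 6 and 12 weeks. In astrocytes 3 of 10 genes rose (28.2% of all genes called). Nr4a1 read 6.61, 6.94, 6.18, 6.25 and 6.62 at 6 weeks, below all its values at 12 weeks given above (1.25, SE 0.20, adjusted p = 0.000264). Arc read 8.01, 7.62, 7.73, 8.06 and 7.76 at 6 weeks, again below all 12-week samples (0.78, SE 0.16, adjusted p = 0.00146). Ier2 read 5.49, 6.14, 5.17, 5.17 and 6.02 at 6 weeks and 6.50, 6.80, 6.13, 6.12 and 6.12 at 12 weeks, which overlapped (0.74, SE 0.22, adjusted p = 0.019). Without number 3, 4 or 14 the change of Ier2 was no longer called, and with endothelial and mural markers as a covariate it was 0.22 (adjusted p = 0.238). Those markers averaged 8.40 (7.37 to 9.68) at 6 weeks and 9.97 at 12 weeks.

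In the WT negative fraction 3 genes rose and Arc fell over the same interval, 4 of 10 called where 51.0% of all genes were. Ier2 read 8.72, 8.99, 8.31, 8.64 and 8.54 at 6 weeks, wholly below its 12-week samples (1.0, SE 0.15, adjusted p = 4.37e-05). Nr4a1 read 9.36, 9.35, 8.51, 8.69 and 9.04 at 6 weeks and 10.21, 9.63, 9.56, 9.85 and 9.61 at 12 weeks, without overlap (0.78, SE 0.20, adjusted p = 0.00283). Arc read 8.26, 7.95, 8.40, 8.06 and 8.25 at 6 weeks and 7.02, 7.63, 7.03, 7.87 and 6.71 at 12 weeks, without overlap (-0.93, SE 0.26, adjusted p = 0.00634). Arc therefore moved up in astrocytes and down in the negative fraction at the same ages, a difference that was not tested. Junb read 6.78, 7.35, 6.95, 7.20 and 7.02 at 6 weeks and 7.29, 7.51, 7.98, 7.80 and 7.71 at 12 weeks (0.59, SE 0.18, adjusted p = 0.0105). Jun was not among the 4 genes, but with the mean of its 2 probe sets it was called higher at 12 weeks (0.54, adjusted p = 0.00144).

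The oligodendrocyte markers of these negative samples fell from 12.74 (12.65 to 12.88) to 12.19 (11.87 to 12.41), the astrocyte markers fell from 9.39 (8.64 to 9.93) to 7.89, and the endothelial and mural markers rose from 11.95 (11.81 to 12.15) to 12.67. With the oligodendrocyte markers as a covariate Arc changed by -0.27 (adjusted p = 0.452) and Junb by 0.33 (adjusted p = 0.284), and with the endothelial and mural markers Arc by -0.55 (adjusted p = 0.205) and Junb by 0.38 (adjusted p = 0.227). In WT microglia limma called 0 of the 9 genes tested between 6 and 12 weeks (30.1% of all genes called, 1 with an unadjusted p below 0.05). With the mean of its 2 probe sets Jun was called there (0.17, adjusted p = 0.0472). Between 6 and 12 months limma called 0 of 10 genes in WT astrocytes (3.99%, 5 with an unadjusted p below 0.05), 0 in microglia (7.79%, 2) and 0 in the negative fraction (0.0634%, 0).

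The WT samples of the months and of the weeks cohort differed in each fraction, and no test compared the fractions. In astrocytes 3 of 10 genes were higher at months (46.0% of all genes called): Nr4a1 (1.71, SE 0.16, adjusted p = 6.26e-10), Egr2 (1.06, SE 0.24, adjusted p = 0.000548) and Egr1 (0.73, SE 0.29, adjusted p = 0.0365). Egr1 lost the call without any 1 of numbers 1, 3, 16, 20, 25 and 34 (adjusted p up to 0.104). The astrocyte group means of Nr4a1 were 5.80 in R6/2 and 6.52 in WT at 6 weeks, 7.22 and 7.77 at 12 weeks, 7.94 in zQ175 and 8.52 in WT at 6 months, and 8.16 and 9.19 at 12 months. WT exceeded the mutant mean of the same age in 4 of 4 ages, but the difference was called only at 12 weeks and at 12 months. Dusp1 in astrocytes had the same order at every age and was called at none. The share of all genes with this order was not computed.

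In microglia 5 genes were lower at months and Arc higher, 6 of 10 called where 51.5% of all genes were. Junb read 11.16, 11.09, 11.23, 11.29 and 11.19 in WT at 6 weeks and 11.20, 11.65, 11.90, 11.05 and 11.57 at 12 weeks. At 6 months it read 9.59, 9.74, 10.24 and 10.68, and at 12 months 10.13, 10.06, 10.68 and 10.24. No months sample reached a weeks sample, for WT and mutants alike, and the change was -1.16 (SE 0.12, adjusted p = 5.89e-09). Ier2 ran from 10.94 to 11.74 in the WT weeks samples and from 9.74 to 11.03 in the months samples (-0.93, SE 0.14, adjusted p = 2.49e-06). Nr4a1 (-0.51, SE 0.15, adjusted p = 0.00479), Egr2 (-0.33, SE 0.12, adjusted p = 0.0179) and Egr1 (-0.13, SE 0.05, adjusted p = 0.0293) were lower by less. Egr2 lost the call without number 37, and Egr1 without number 22, 23 or 37. With the mean of its 2 probe sets Egr2 was not called either (-0.20, adjusted p = 0.101). Jun, which was not called by its 1 probe set, was lower with the mean of its 2 probe sets (-0.29, adjusted p = 1.5e-05).

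Arc in microglia ran from 4.71 to 5.49 in the WT weeks samples and from 5.37 to 6.50 in the months samples (0.96, SE 0.15, adjusted p = 2.54e-06). Oligodendrocyte markers were higher in the same months samples, as given above, and with their mean as a covariate Arc changed by 0.55 (adjusted p = 0.104) and Egr2 by -0.27 (adjusted p = 0.371), and Egr1 by 0.00 (adjusted p = 0.991). For the negative fraction 2 of 10 genes were called (38.5% of all genes called), Egr2 higher at months (0.73, SE 0.20, adjusted p = 0.00458), as in astrocytes, and Arc lower (-0.69, SE 0.25, adjusted p = 0.0292). Nr4a1 differed by 0.49 there (SE 0.20) and did not pass (adjusted p = 0.0509). Arc lost the call without any 1 of numbers 14, 18, 23, 25, 34 and 35, and with the oligodendrocyte markers as a covariate it changed by -0.15 (adjusted p = 0.539).

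**Figure D5:**
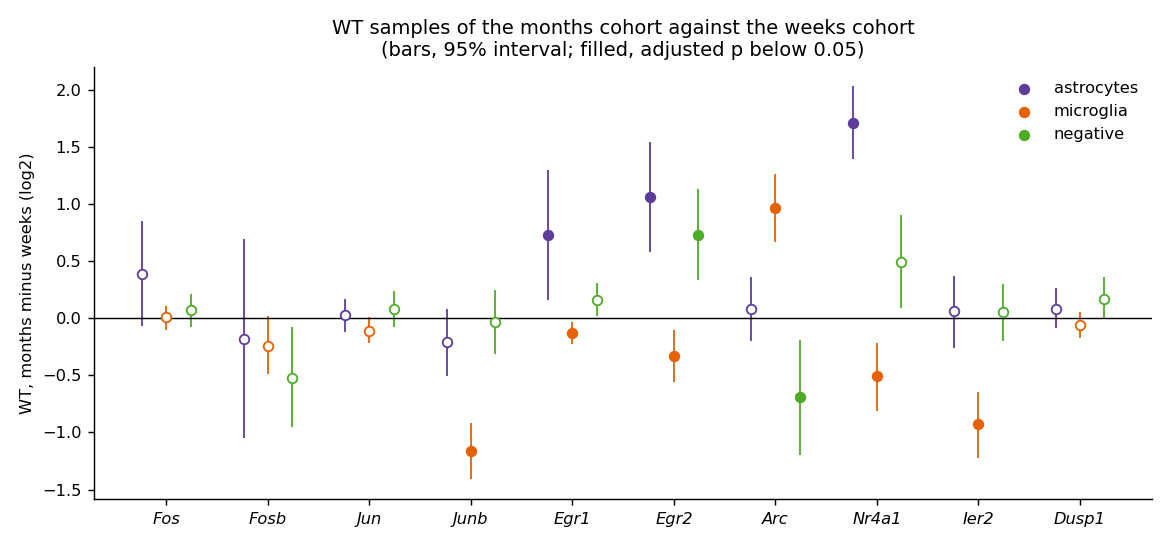
Log2 difference between the WT samples at months and at weeks (vertical axis) for each gene and fraction, with bars for the 95% interval and filled points for an adjusted p below 0.05. Nr4a1 in astrocytes (1.71) and Junb in microglia (-1.16) lie farthest from 0.

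Samples of the same number in different fractions were compared to see whether a number that was high in one fraction was high in another. This used deviations from group means over 37 numbers, 30 relations in all, adjusted over all genes. Between microglia and the negative fraction 2 of 10 genes passed (3.3% of all genes called). Jun had r = 0.71 (rho = 0.60, permutation p = 9e-05, adjusted p = 0.00381), 0.58 without the 2 farthest samples, 0.59 in the 21 weeks and 0.85 in the 16 months numbers. Egr1 had r = 0.55 (rho = 0.51, permutation p = 0.00139, adjusted p = 0.0487), 0.43 without the 2 farthest samples, and Fosb (0.55, adjusted p = 0.0504) and Fos (0.53, adjusted p = 0.0588) did not pass. With those 2 samples left out neither Jun nor Egr1 was called, nor in the weeks or the months numbers alone, all of which are smaller sets. Between astrocytes and the negative fraction 0 of 10 genes passed (1.1% of all genes called, 5 with an unadjusted p below 0.05), with Fosb at r = 0.48 (adjusted p = 0.152). Between astrocytes and microglia 0 passed (0.526%, 0 with an unadjusted p below 0.05), and the members' median r was 0.00 against 0.18 over all genes.

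Related genes, on lists chosen with earlier results of these data known, are set beside the 10 genes here, with each list's median difference and that of all genes in the same test. These medians keep the sign, so that of all genes gives no typical size. Of all genes tested, 85.6% were called between WT astrocytes and microglia and 83.7% between WT microglia and the negative fraction. Between WT astrocytes and microglia, other AP-1, EGR and NR4A factors were lower in astrocytes for 7 of 9 genes tested and higher for 0 (median -2.47, all genes 0.05), among them Atf3 (-6.81), Egr3 (-4.46) and Maff (-4.40). Of 26 other primary response genes 24 were lower and 2 higher (median -2.08), led by Socs3 (-6.66), Klf2 (-4.73) and Ier3 (-4.44). Of 11 inflammatory activation genes all 11 were lower (median -5.91), led by the chemokines Ccl3 (-8.42), Ccl4 (-8.10) and Cxcl2 (-7.42). Of 10 heat shock genes 9 were lower (median -0.91), led by Hspa1a (-4.79). MAP kinase inhibitors were split, 4 higher and 6 lower of 10 (median -0.85), with Spry4 (4.64) and Spry2 (4.10) higher in astrocytes and Dusp5 (-4.69) lower. Of 13 upstream kinases and factors 11 were lower and 2 higher (median -0.88), among those lower Elk3 (-3.20) and Mrtfa (-2.06). Of 3 late neuronal genes tested 2 were higher in astrocytes (median 1.01), Scg2 (3.26) and Homer1 (1.01), as Arc was. Between WT microglia and the negative fraction 23 of 26 primary response genes were higher in microglia and 3 lower (median 1.22, all genes -0.03), and of 9 other AP-1, EGR and NR4A factors 5 were higher and 2 lower (median 0.45).

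With the mutation some genes of these lists changed, and each count is to be read against the share of all genes called. In R6/2 astrocytes at 12 weeks, where 28.7% of all genes were called, Nr4a3, the relative of Nr4a1, rose (0.77, adjusted p = 0.00241), the 1 of 7 other AP-1, EGR and NR4A factors called. Of 25 primary response genes 1 rose and 5 fell (median -0.14, all genes 0.00), with Klf10 (-1.03), Trib1 (-0.56) and Ccn1 (-0.50) the largest, and of 8 MAP kinase inhibitors 4 fell (median -0.27), led by Spry4 (-0.66), Spry1 (-0.54) and Spred1 (-0.39). Of 13 upstream genes 3 rose and 1 fell: Mrtfb (0.60) and Rps6ka3 (0.41) were among those higher and Srf (-0.52) was lower. Of 5 late neuronal genes Nrn1 rose (3.84), and Bdnf (-2.43) and Scg2 (-1.76) fell. In the R6/2 negative fraction (26.2% of all genes called) 4 of 9 other AP-1, EGR and NR4A factors fell and 0 rose (median -0.42, all genes 0.02), led by Fosl2 (-1.15), Egr3 (-0.89) and Nr4a2 (-0.67), and 3 of 9 inflammatory genes fell (median -0.45), Ptgs2 (-1.59), Tnfaip3 (-1.05) and Cd83 (-0.99). In R6/2 microglia at 12 weeks (6.08% of all genes called) Egr3 rose (1.45), the 1 of 9 such factors called there, and 5 of 10 heat shock genes fell (median -0.49, all genes -0.05), led by Hspb1 (-1.35), Bag3 (-1.18) and Hspa1a (-0.98).

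In zQ175 mice at 12 months 3 of 8 MAP kinase inhibitors fell in astrocytes (median -0.28, all genes 0.02, 5.9% of all genes called) and 2 of 10 in the negative fraction (median -0.35, all genes 0.05, 6.93% of all genes called). Spry4 and Dusp6 were among them in both, with -0.73 and -0.61 in astrocytes and -0.80 and -0.63 in the negative fraction. Trib1, a primary response gene, was lower in both as well (-0.88 and -1.32), whereas Klf10 was higher in astrocytes (0.71) and lower in the negative fraction (-0.71). Between the WT cohorts the counts are to be read against the shares of all genes called (46.0% in astrocytes, 51.5% in microglia and 38.5% among negative samples). In astrocytes 4 of 7 other AP-1, EGR and NR4A factors were higher at months and 0 lower, led by Nr4a3 (2.01), Fosl2 (1.75) and Nr4a2 (1.39), and 11 of 25 primary response genes were higher and 1 lower (median 0.27 for each list, all genes -0.01). In microglia 5 of 9 such factors were lower and 0 higher, led by Mafk (-1.14), Maff (-0.82) and Egr3 (-0.76), and 14 of 26 primary response genes were lower and 1 higher (medians -0.40 and -0.27, all genes -0.02). In the negative fraction 5 of 9 factors were higher and 0 lower, led by Maff (1.47), Egr3 (1.33) and Nr4a3 (1.33), and 9 of 26 primary response genes were higher and 2 lower (medians 1.05 and 0.26, all genes 0.02).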

How the data were processed

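Gene expression was measured on 1 Affymetrix array per sample, with RNA from sorted striatal cells. What the authors deposited is a log2 signal for each of 45101 probe sets, made with affy, RMA (background correction, quantile normalization and probe summary) and limma, per the submitters' processing notes. The sources used here do not give their versions and order, or whether all arrays were normalized as 1 set. Values ran from 1.50 to 14.26 and were used as deposited, with no 2 arrays identical. The number of arrays limits the precision.

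Probe sets with 1 symbol in the platform annotation (34958, against 932 with several and 9211 with none) named 18194 genes, each by its probe set with the highest mean. Of these probe sets 34754 matched RefSeq gene identifiers of GRCm38.p6, which changed 0 symbols. A gene was tested when its mean over a fit's arrays reached the 40th percentile of probe set means.

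Linear models of limma 3.58.1 (R 4.3.3) with moderated, two-sided tests gave the differences, whose p-values were adjusted (Benjamini-Hochberg) over every gene in the fit and called below 0.05. WT fractions came from 1 fit of the WT samples of all fractions and ages, genotype and WT age from the 4 groups of a fraction and model, and months against weeks from the 8 groups of a fraction. The scripts were tested on simulated data. Correlations used deviations from group means, with 100000 permutations for the p of a member and a t distribution for the adjustment over all genes. The text names the 10 members, up to 3 called genes with the largest change of each other list, and the 6 genes most like the members in each fraction. The members and lists were chosen with earlier results of these data known. Replicate numbers occur once in each fraction, and the fits did not use them as a block. Alternatives were no filter on dim genes, equal array medians, the mean of a gene's probe sets, all 8 groups in 1 fit, the replicate block, the leaving out of each number and, added after seeing the data, marker means as covariates. Htt and the deposited values of other probe sets are not reported here.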

Additional observations from a re-analysis of the deposited data

Results flagged for a closer look

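Of 240 sets of samples (10 genes in 24 groups), 17 held a sample far from the rest of its group by Dixon's criterion, 9 in microglia, 4 in astrocytes and 4 in the negative fraction. Chance alone marks about 1 in 20. In WT at 12 months, number 34 had Fosb at 7.88 (others 4.97 to 5.37) and Dusp1 at 12.11 (11.55 to 11.63) in astrocytes, number 36 had Jun at 11.02 (11.38 to 11.39) in astrocytes, and number 37 had Egr1 at 13.07 (13.23 to 13.26) and Arc at 5.37 (6.08 to 6.15) in microglia. In zQ175 at 12 months, number 30 had Fosb at 6.34 (5.84 to 5.86) in astrocytes, and number 32 was low in microglia for Fosb at 11.11 (12.02 to 12.11), Egr1 at 13.08 (13.30 to 13.33) and Egr2 at 11.33 (11.82 to 11.89). In the negative fraction of zQ175 at 6 months, number 26 had Junb at 7.47 (7.15 to 7.19) and Arc at 8.35 (6.42 to 6.74). In the WT negative fraction, number 2 had Fos at 12.89 (12.59 to 12.63) at 6 weeks and number 12 Fosb at 11.14 (9.90 to 10.18) at 12 weeks. In microglia of the weeks cohort, number 13 had Junb at 11.82 (11.23 to 11.43, R6/2 at 12 weeks), number 14 Egr1 at 13.17 (13.34 to 13.38, WT at 12 weeks), number 7 Egr2 at 12.00 (12.20 to 12.28) and number 9 Ier2 at 11.56 (11.05 to 11.20, both R6/2 at 6 weeks).

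Mutant effects differed between models or fractions for 5 results, each by a test of the difference. The R6/2 effect at 12 weeks minus the zQ175 effect at 12 months was -1.52 for Arc and -0.51 for Jun in astrocytes and -1.48 for Arc in the negative fraction. The R6/2 effect at 12 weeks in astrocytes minus that in microglia was 1.10 for Egr2 and -0.88 for Nr4a1.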

How the results depend on the processing

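The fraction differences were the firmest: all 10 genes were called between all WT fractions whichever number was left out (10 to 10). Other counts of called genes moved. With array medians set equal the calls became 0 (from 1) between models in the negative fraction, 1 (from 2) for R6/2 astrocytes minus microglia, 1 (from 0) for R6/2 microglia minus negative, 2 (from 0) for WT astrocytes at 12 against 6 months and 4 (from 2) for months minus weeks in the negative fraction. With no filter on dim genes they became 0 (from 1) between models and for zQ175 at 12 months in the negative fraction, and 1 (from 2) for R6/2 astrocytes minus microglia. With the mean of a gene's probe sets they became 0 (from 1) between models and 2 (from 1) for R6/2 at 12 weeks in the negative fraction, and 1 (from 0) for WT microglia at 12 against 6 weeks. With all 8 groups in 1 fit they became 3 (from 0) for WT astrocytes at 12 against 6 months, 1 (from 0) for zQ175 microglia and 2 (from 1) for the zQ175 negative fraction at 12 months. With oligodendrocyte markers as a covariate they became 2 (from 4) for R6/2 astrocytes, 2 (from 1) for the R6/2 negative fraction, 2 (from 1) between models and 2 (from 4) for WT 12 against 6 weeks in the negative fraction, and for months minus weeks 3 (from 6) in microglia and 1 (from 2) in the negative fraction. With endothelial and mural markers they became 0 (from 1) in the R6/2 and the zQ175 negative fraction, 1 (from 0) for WT astrocytes at 12 against 6 months and 2 (from 4) for WT 12 against 6 weeks in the negative fraction. The cause of these moves was not tested. For same-numbered microglia and negative samples the 2 calls became 1 with no filter, 1 with equal array medians, 0 in the weeks samples, 0 in the months samples and 0 without the 2 farthest samples.

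Leaving out 1 number gave these ranges. Between models calls ran from 1 to 2 in astrocytes and 0 to 2 in the negative fraction. For R6/2 they ran from 0 to 2 for astrocytes minus microglia, 0 to 1 for microglia minus negative, 0 to 1 in astrocytes at 6 weeks, 2 to 4 in astrocytes and 0 to 2 in the negative fraction at 12 weeks. For zQ175 at 12 months they ran from 0 to 2 in astrocytes, 0 to 1 in microglia and 0 to 2 in the negative fraction. For WT age they ran from 2 to 4 in astrocytes, 0 to 1 in microglia and 4 to 5 in the negative fraction at weeks, and 0 to 1 in astrocytes at months. For months minus weeks they ran from 2 to 3 in astrocytes, 4 to 8 in microglia and 2 to 4 in the negative fraction. For same-numbered samples they ran from 0 to 1 (astrocytes and negative) and 1 to 4 (microglia and negative). All other counts stayed at 0.

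Single values reversed in 2 cases. Jun in astrocytes between months and weeks was 0.03, and with the mean of its 2 probe sets -0.23 (adjusted p = 0.0288), so its probe sets disagree. Egr1 in microglia went from -0.13 to 0 (adjusted p = 0.991) with oligodendrocyte markers as a covariate.

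With the replicate block, 40 of 42 results kept their call. Nr4a1 passed for zQ175 astrocytes minus negative (-1.45, adjusted p = 0.0406), which raised that count from 0 to 1. Deviations of same-numbered samples correlated above 0.1 in 23, 23 and 22 of 37 numbers (astrocytes and microglia, astrocytes and negative, microglia and negative), so not every number passed 0.1, and the numbers were not used as pairs. A sample matched its own number best in 21, 20 and 19 of 37, with only the 4 to 6 numbers of its own genotype and age as candidates. This is a hint from the data that numbers may mark shared pools, not a statement of the labels.

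The limits are few pools per group, no detection calls for dim probe sets, unknown array batches, and fractions that hold several cell types.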
